A study of Mus musculus with 12 samples.

Results

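Complex I, or NADH:ubiquinone oxidoreductase, takes electrons from NADH at the start of the mitochondrial respiratory chain, passes them along a flavin and a row of iron-sulfur clusters to ubiquinone, and pumps protons across the inner membrane. It is L-shaped, with a matrix arm that carries out the electron transfer and a membrane arm that pumps protons. The mitochondrial genome encodes 7 of its membrane subunits, and the nucleus encodes the remainder. The 35 genes described here are the rows of the deposited tables whose symbol was 1 of a list of 35 nuclear NADH dehydrogenase (Nduf) genes, of 56162 features in all, and the list was not chosen by expression. All 35 symbols were found, each in 1 row, and all 35 passed the filter on low counts. Slow type I fibres of muscle are known for a high mitochondrial content and fast type IIb fibres for a low one, and endurance training is known to raise mitochondrial content.

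Myofibers of male C57BL/6J mice, for which the labels give an age of 8 weeks and no transgene or knockout, were sequenced in 4 groups of 3 libraries: type I fibres from soleus and type IIb fibres from extensor digitorum longus (EDL), each from untrained mice and from mice trained on a treadmill. Training lasted 6 weeks, with runs of 60 min at 12 to 16 m/min on 5 days a week, and muscles were taken 3 days after the last run. Collagenase digestion (2 mg/ml, 37 °C) took 90 min for soleus and 60 min for EDL, so fibre type, muscle and digestion time changed together and cannot be told apart. Each fibre was cut, its type was read from the myosin heavy chain protein in one piece, and the other piece was lysed for sequencing. The labels do not say which libraries came from which mouse or how many fibres a library holds, so every p-value below measures only the spread between these libraries, which may be technical. The comparisons ask whether complex I transcripts differ between slow and fast fibres, and whether training moves them in either.

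Library totals ranged from 8026397 to 24995288 counts, and genes with at least 10 counts from 3636 to 14428. The main myosin of each library was that of its fibre type label. Myh7, the slow myosin, made up 80.5% to 99.8% of myosin heavy chain counts in the 6 type I libraries. Myh4, the type IIb myosin, made up at least 99.7% in the 6 type IIb libraries. Markers of capillary cells did not spread evenly. The summed level of 10 endothelial markers was 58.0 to 1712 CPM (counts per 1000000 counts of the library) in the type I untrained libraries, 0.929 to 218 in the type I trained, 0 in each of the 3 type IIb untrained, where all 10 genes were without a count, and 0 to 240 in the type IIb trained libraries. The summed level of 7 fibroblast markers was 19.9 to 8846, 2.67 to 115, 0.103 to 1.18 and 0.105 to 169 CPM in the same order. Type I untrained library 1 had the lowest Myh7 share, 80.5%. Its Myh4 share was 0.0523%, so most of the rest of its myosin heavy chain counts was Myh1 or Myh2. Its summed fast fibre markers were at 5017 CPM, against 419 to 1195 CPM in the other type I libraries.

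The promoters of the members are the one sequence layer that could be read beside these counts. RefSeq promoter sequences (GRCm38.p6, the same build as mm10, 250 bases before to 50 after the annotated start) were found for 32 of the 35 members. Exact motif letters of 4 factors known for control of mitochondrial genes were searched on both strands: GCGCATGCG for nuclear respiratory factor 1, TCAAGGTCA for the oestrogen-related receptors, CCGGAAGT for the ETS factor GABP and AAGATGGCG for YY1. A match to any of the 4 stood in a promoter of 8 of the 32 members, or 25%. The share was 7.93% of all 27025 genes with a promoter in the table. No member promoter held more than 1 of the motifs. The YY1 letters were in 5 members (15.6% against 1.64% of all genes with a promoter) and those of nuclear respiratory factor 1 in 2 (6.25% against 1.95%). Those of GABP were in 1 (3.13% against 4.31%) and those of the oestrogen-related receptors in 0 (against 0.466%). The median GC content was 59.0% in member promoters and 52.7% in all promoters. The 8 matches are shown as 30-base windows on the gene's own strand, 5′ to 3′, with the motif in capitals. At Ndufa11 the capitals cover a match on each strand, since the motif of nuclear respiratory factor 1 overlaps its own reverse complement. They are shown as the exact letters behind these counts. Of the genes that hold them, Ndufc1 had the highest mean level per length of the 35, Ndufa9 the second lowest, and the other 6 lay between.
Ndufc1, chr3:51408914-51408943, minus strand: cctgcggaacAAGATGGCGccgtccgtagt
Ndufa9, chr6:126849096-126849125, minus strand: attgtgggagAAGATGGCGgccgccgtccg
Ndufs7, chr10:80249463-80249492, plus strand: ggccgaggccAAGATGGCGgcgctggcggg
Ndufs6, chr13:73328433-73328462, minus strand: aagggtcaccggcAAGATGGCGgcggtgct
Ndufs4, chr13:114388045-114388074, minus strand: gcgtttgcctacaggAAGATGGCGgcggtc
Ndufa11, chr17:56717692-56717721, plus strand: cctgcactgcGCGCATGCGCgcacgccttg
Ndufa8, chr2:36049328-36049357, minus strand: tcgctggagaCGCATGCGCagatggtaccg
Ndufs3, chr2:90904702-90904731, minus strand: gcacatttccACTTCCGGtccgtgcccttg
In all 5 YY1 matches the motif began after the annotated start, at base 23 to 36 of the transcribed strand. The match at Ndufa11 began 60 bases before the start. These are matches of letters; no binding was measured.

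Every member was detected in every library. The lowest member count in any library was 205, and 1847 genes of the whole table had at least 10 counts in all 12 libraries. The summed share of the 35 genes was 2.30%, 2.75% and 2.06% of all counts for type I untrained libraries, 2.11%, 2.90% and 2.47% for type I trained, 2.73%, 2.498% and 2.69% for type IIb untrained and 2.16%, 1.15% and 2.15% for type IIb trained libraries. The type IIb untrained libraries lay within the range of the type I libraries, and the low value was a single type IIb trained library. In such bulk libraries fewer cells of a type and less RNA per cell cannot be told apart.

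**Figure D1:**
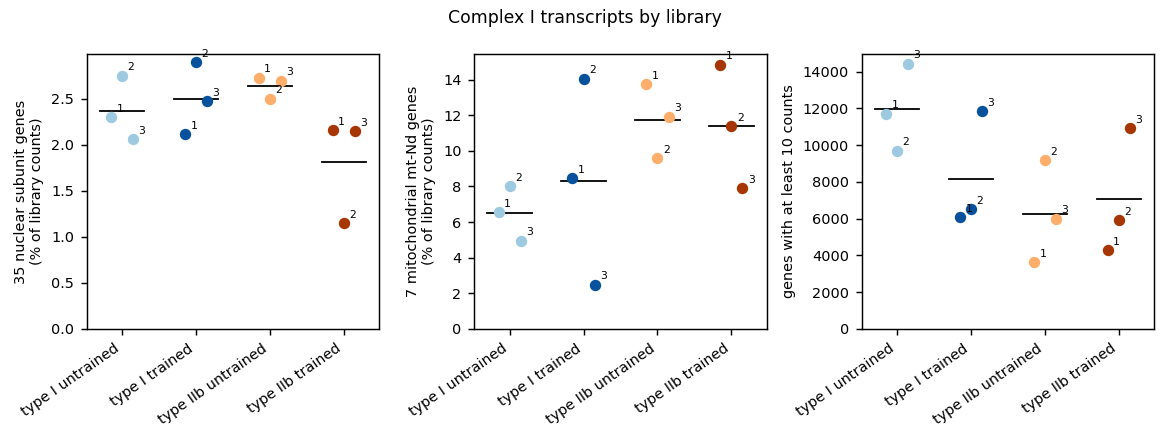
Share of library counts (%) taken by the 35 nuclear subunit genes, share taken by the 7 mitochondrially encoded subunit genes, and number of genes with at least 10 counts, for each of the 12 libraries (points, numbered by replicate) with the mean of each group (bars). The nuclear share was 1.15% to 2.90%, with 1 type IIb trained library at the bottom, while the mitochondrial share ran from 2.49% to 14.8%.

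The level per length differed far more between members than between groups. Mean FPKM (fragments per kilobase of gene length and 1000000 fragments) over the 12 libraries ran from 29.1 for Ndufb2 to 4016 for Ndufc1, a 138-fold range. Ndufc1, a small membrane subunit (ENSMUSG00000037152, mm10 chr3:51404677-51408988), was listed at 2085, 3947 and 1793 FPKM in untrained type I, 2654, 6538 and 2380 in trained type I, 9555, 3241 and 5398 in untrained type IIb and 6805, 2262 and 1535 in trained type IIb libraries. Ndufa1, a membrane anchor of the proximal arm encoded on the X chromosome, stood at 3452, 3089 and 2269, then 3580, 4679 and 3715, then 3569, 3373 and 2593, and then 3414, 1113 and 1522 FPKM in the same order of groups. Ndufa4 was the next, at 2860, 2951 and 2124, then 3430, 4631 and 3913, then 3057, 2718 and 3126, and then 2271, 2303 and 2109 FPKM. Ndufa4 was first purified with complex I and is now assigned to cytochrome c oxidase (complex IV), so 1 of these 3 highest genes is a complex I gene by name only. The ranges of these 3 genes over libraries overlapped one another, as Ndufc1 spanned 1535 to 9555 FPKM.

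At the low end, the core subunit Ndufs8 stood at 244, 368 and 439 FPKM in untrained type I, 47.7, 85.3 and 193 in trained type I, 166, 267 and 109 in untrained type IIb and 34.5, 32.4 and 359 in trained type IIb libraries. Ndufa9, a matrix arm subunit near the ubiquinone site, was at 135, 120 and 89.2, then 131, 113 and 122, then 171, 117 and 62.7, and then 42.6, 70.4 and 136 FPKM. Ndufb2, a small distal membrane subunit, was at 48.2, 29.9 and 17.4, then 35.2, 32.0 and 37.4, then 33.3, 26.8 and 16.9, and then 25.3, 27.1 and 20.2 FPKM. Ndufb2 lay below Ndufa9 in every library, while Ndufs8 and Ndufa9 overlapped. The deposited length of Ndufb2, 1250 bases, enters its FPKM, and the deposited length was equal to the union of annotated exons in 6 of 35 members, so the order by FPKM also depends on the length the authors used. By role, mean FPKM was 195 to 458 for the 6 core subunits, 109 to 2819 for the 9 accessory subunits of the matrix arm, 325 to 4016 for the 9 of the proximal membrane arm and 29.1 to 1220 for the 10 of the distal membrane arm. All 6 core subunits were thus below 500 FPKM on average, whereas Ndufa4 and 5 accessory subunit genes (Ndufa12, Ndufa5, Ndufa2, Ndufa1 and Ndufc1) were at 1728 or more.

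**Figure D2:**
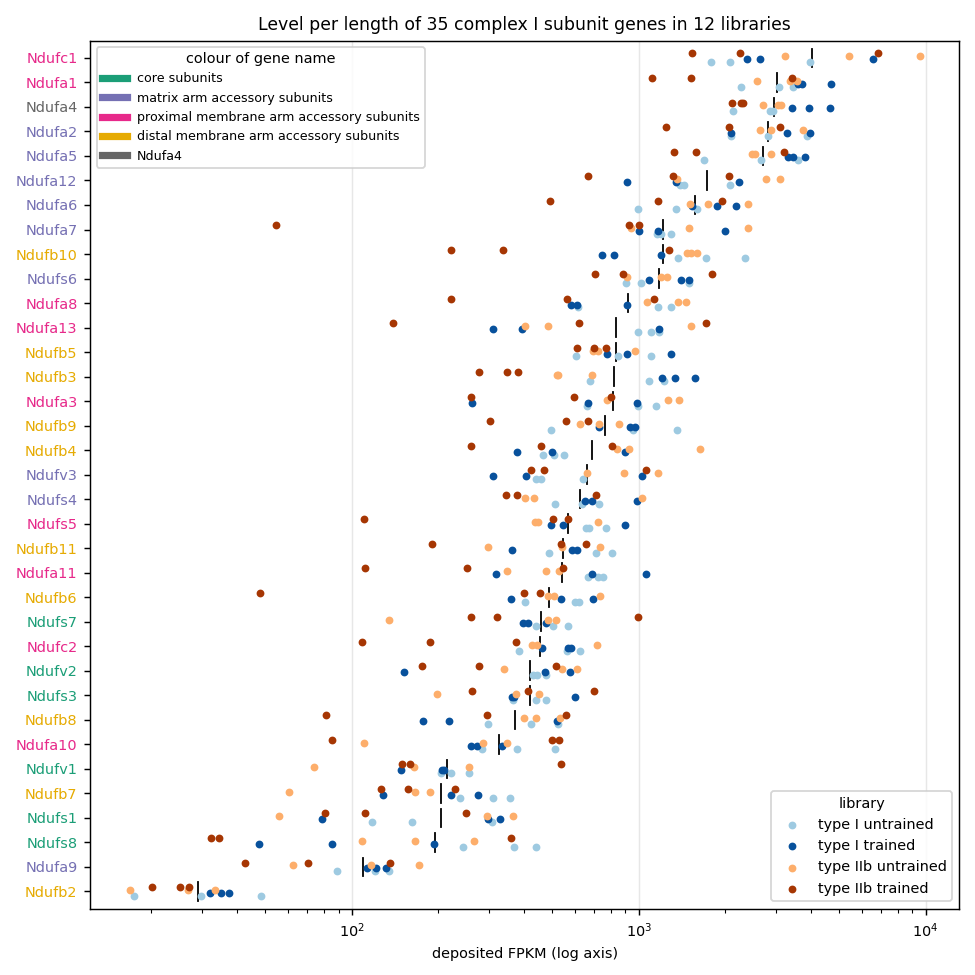
Deposited FPKM (log axis) of each of the 35 genes in each library (points, coloured by group), ordered by the mean over 12 libraries (black bars); gene names are coloured by structural role. Ndufc1 (4016), Ndufa1 (3031) and Ndufa4 (2958) are highest and Ndufb2 (29.1) lowest, and the 4 groups are mixed along nearly every row.

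The order of the genes was similar in all libraries. Spearman's rho between the member levels of 2 libraries, across genes and therefore with shared lengths behind it, was 0.61 to 0.98 over 66 pairs of libraries, with a median of 0.85 within groups and 0.81 between groups. The median SD of log2 CPM over the 12 libraries, with library sizes scaled by TMM (trimmed mean of M values), was 0.69 for the 35 members and 1.96 for all 11747 genes tested, many of which had far lower counts. Ndufb5 (SD 0.49), Ndufa4 (0.51) and Ndufb2 (0.54) varied least. Ndufa7 (1.28), Ndufs8 (1.13) and Ndufc1 (1.07) varied most, and Ndufa7 spanned a 33.4-fold range of CPM. Across the 12 libraries the median Pearson r between 2 members was 0.30 over 595 pairs, from -0.55 to 0.94, with 78.8% of pairs positive, which is a description of genes that share libraries and scaling.

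No member passed the test in any of 7 comparisons. The comparisons were training in type I fibres, training in type IIb fibres, type I against type IIb among untrained mice and then among trained ones, the difference between the training effects (interaction), and the fibre type and training effects averaged over the other factor. With edgeR's quasi-likelihood test and Benjamini-Hochberg adjustment over all 11747 genes, 0 of 35 members had an adjusted p under 0.05 in each. Among all genes the called share was 0% for training in type I, 0% for training in type IIb, 0.46% for the fibre types in untrained and 0.536% in trained mice, 0% for the interaction, 1.93% for the averaged fibre type effect and 0% for averaged training. A count of 0 among 35 genes is near the background in all 7 comparisons. At an unadjusted p under 0.05 the members numbered 1, 1, 4, 1, 3, 3 and 1 in that order. The shares of all genes were 2.94%, 8.21%, 17.5%, 8.03%, 8.94%, 16.9% and 3.82%. These counts too are near or below the background. DESeq2 called 0 members in all 7 as well, although it called 0.502%, 3.1%, 8.78%, 2.95%, 3.35%, 9.18% and 1.93% of all genes in that order. Limma-voom with quality weights called 8 members (22.9%) in the untrained fibre type comparison, where it called 16.2% of all genes, 1 in the averaged fibre type effect, against 9.13% of all genes, and 0 in the other 5. Standard errors of the member log2 fold changes in the comparisons of 2 groups were 0.37 to 1.34, so the 95% intervals of single members were wide.

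**Figure D3:**
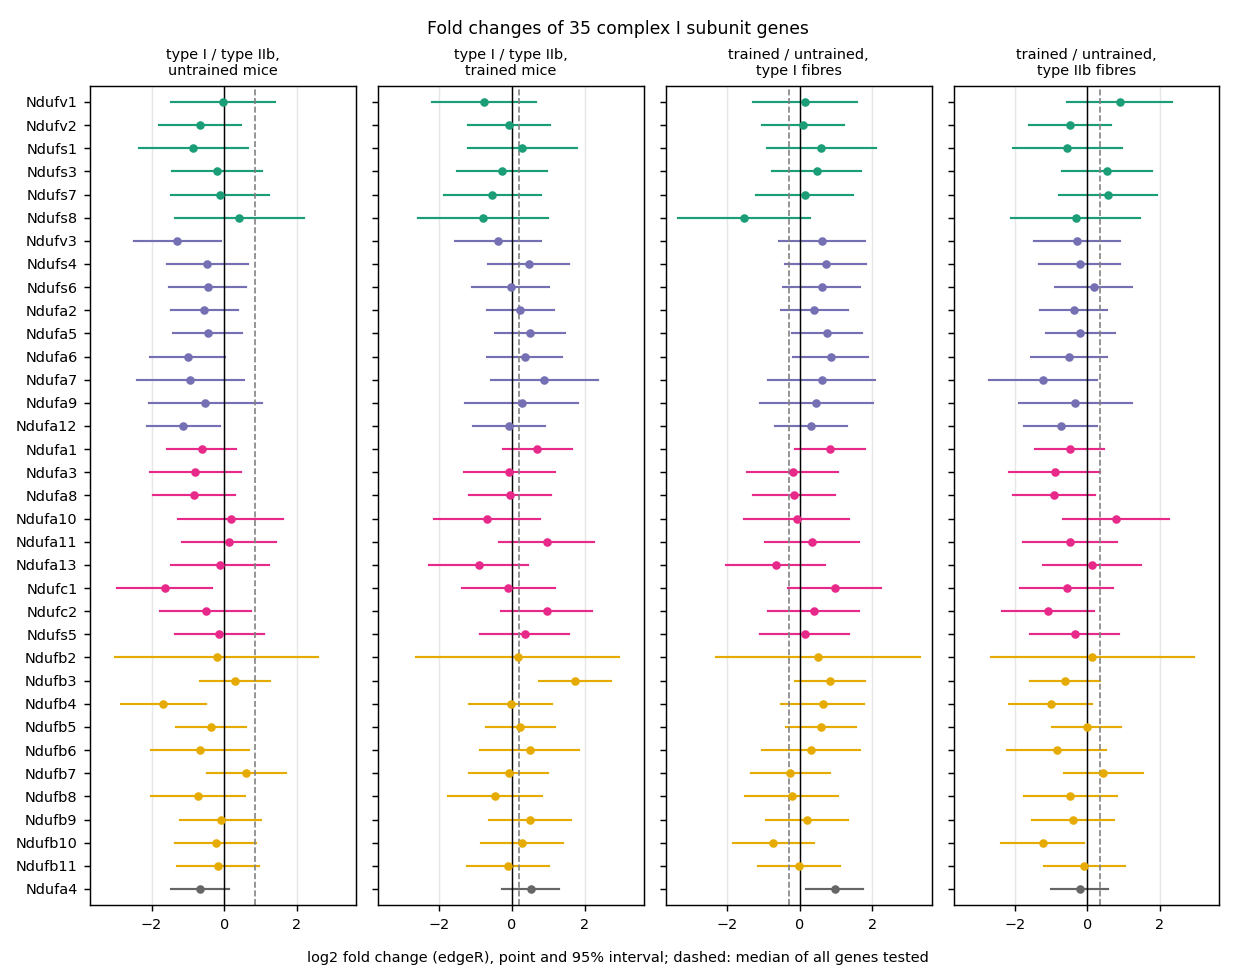
Log2 fold change (points) with 95% interval (lines) of the 35 genes in the 4 comparisons of 2 groups, coloured by role as in the plot of levels; the dashed line is the median of all 11747 genes tested. Most intervals cross 0; those that do not (Ndufb4 and Ndufb3 among them) belong to genes whose adjusted p was above 0.05.

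Untrained fibres gave the most members with an unadjusted p under 0.05, 4 genes, all lower in type I: Ndufb4, Ndufc1, Ndufa12 and Ndufv3. The share of all genes with such a p was also highest there, at 17.5%, and 4 of 35 lies below it. Of the 35 log2 fold changes (type I over type IIb), 5 were positive and 30 negative, with a median of -0.46 (all genes 0.85). The split was 18 and 17 with a median of 0.01 on library totals without TMM, 18 and 17 on log2(FPKM + 1), and 13 and 22 in edgeR with DESeq2's size factors. The scaling itself moved the median of all genes, from 0.85 with TMM to 1.17 with those size factors and 1.47 on library totals. The 54 calls among all genes were 30 higher and 24 lower with TMM against 35 and 14 on library totals. A direction for the whole set is therefore not fixed in untrained fibres, and what the 4 scalings shared was a member median below that of all genes. With TMM the median SE was 2.43 for all genes and 0.57 for members. Genes with at least 10 counts averaged 11947 in type I untrained and 6269 in type IIb untrained libraries. The part of that difference in the median of all genes was not tested. The libraries with the most capillary and fibroblast RNA were type I untrained libraries, as given above. Without the 3 libraries highest in endothelial markers, which leaves 1 type I untrained library that is assumed to vary like the others, the median was -0.14, 20 of 35 were negative and 0 members were called.

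Ndufb4, a subunit of the distal membrane arm (ENSMUSG00000022820, mm10 chr16:37647170-37654453), had the largest difference in untrained fibres. It was at 258, 409 and 267 CPM (TMM-scaled) in untrained type I, 359, 844 and 244 in trained type I, 771, 773 and 1437 in untrained type IIb and 782, 300 and 399 in trained type IIb libraries. The 3 type I untrained libraries all lay below the 3 type IIb untrained ones, and the trained groups overlapped. Between untrained groups, its log2 fold change (type I over type IIb) was -1.67 (SE 0.56, 95% interval -2.84 to -0.51, edgeR adjusted p = 0.23), and limma-voom gave an adjusted p of 0.00419; over all 26 alternatives it was 0.00419 to 1. In trained mice the value was -0.03 (-1.17 to 1.10).

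Ndufc1 was at 871, 2210 and 706 CPM in untrained type I, 1901, 4632 and 876 in trained type I, 5974, 2233 and 3563 in untrained type IIb and 4957, 1964 and 1007 in trained type IIb libraries. The untrained groups were separated by a narrow gap, 2210 against 2233 CPM. Its log2 fold change in untrained mice was -1.64 (SE 0.62, -2.94 to -0.33, edgeR adjusted p = 0.23), and -0.10 (-1.37 to 1.17) in trained mice. Averaged over training it was -0.87 (SE 0.43, -1.77 to 0.04, edgeR adjusted p = 0.326), the second largest of the averaged fibre type effects.

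In all, 8 members had no overlap between the untrained groups, all lower in type I: Ndufv3, Ndufa6 and Ndufa12 of the matrix arm, Ndufc1, Ndufb4, Ndufb6 and Ndufb8 of the membrane arm, and Ndufa4. That is 22.9% of members, and 27.7% of all genes tested had no overlap in that comparison. On CPM of library totals, 4 members had none (32.8% of all genes), lower in type I for Ndufv3 and Ndufb4 and higher for Ndufa11 and Ndufb7. Ndufv3, a small subunit beside the NADH-binding core, had a log2 fold change of -1.29 (SE 0.57, edgeR adjusted p = 0.248), and Ndufa12 one of -1.12 (SE 0.48, edgeR adjusted p = 0.235).

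Trained fibres gave an even split. Type I over type IIb was positive in 18 and negative in 17 members, with a median of 0.16 (all genes 0.21). The split was 27 and 8 on library totals and 31 and 4 on log2(FPKM + 1). When libraries were scaled to the members themselves it was 15 and 20. That scaling sets the members' mean log count equal by construction, so its split cannot show a direction of the whole set. Only Ndufb3 had no overlap between the trained groups, which is 1 of 35, or 2.86%, against 10.5% of all genes; on library totals 9 of 35 had none, all higher in type I, against 11.5% of all genes.

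Ndufb3, another distal membrane arm subunit (ENSMUSG00000026032, mm10 chr1:58586384-58595964), had the largest difference between fibre types in trained mice. Its levels were 660, 782 and 344 CPM in untrained type I, 1447, 1095 and 633 in trained type I, 421, 459 and 584 in untrained type IIb and 324, 309 and 321 in trained type IIb libraries. The 3 type IIb trained libraries lay between 309 and 324 CPM, below all 3 type I trained libraries, while the untrained groups overlapped. Type I over type IIb, its log2 fold change was 1.73 in trained mice (SE 0.47, 0.74 to 2.73, a 3.33-fold ratio, edgeR adjusted p = 0.195) and 0.29 (-0.68 to 1.25) in untrained mice. Averaged over training it was 1.01 (SE 0.33, 0.32 to 1.70, edgeR adjusted p = 0.103), the largest averaged fibre type effect of the 35. It was positive under all 25 alternatives run for that comparison, from 0.66 to 1.42, and was called on library totals (edgeR adjusted p = 0.01, 1.82% of all genes called) and by limma on log2(FPKM + 1) and log2(FPKM + 0.1) (adjusted p = 0.0123 and 0.0083, with 5.11% and 4.83% called). The difference in trained mice was called under the same 3 settings, with adjusted p of 0.0217, 0.0237 and 0.0139, where 0.494%, 0.902% and 0.894% of all genes were called. Over all 26 alternatives its adjusted p was 0.0139 to 0.745. Against the median member of the same library, chosen for display after the values were seen, Ndufb3 stood at log2 differences of 0.85, 0.45 and 0.25 in type I untrained libraries, 1.64, 0.90 and 0.94 in the trained ones, and -0.24, -0.09 and 0.00 in type IIb untrained and -0.23, 0.07 and -0.81 in type IIb trained libraries. On that scale, which does not depend on library size, all 6 type I libraries were above all 6 type IIb libraries (lowest 0.25, highest 0.07). It was the only member of the 35 to do so, and 3.58% of all genes were separated on that scale.

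Ndufc2, a proximal membrane subunit, had the next largest difference in trained mice. It was at 253, 306 and 147 CPM in untrained type I, 321, 392 and 208 in trained type I, 437, 295 and 274 in untrained type IIb and 77.0, 158 and 239 in trained type IIb libraries. The groups overlapped, and the log2 fold change was 0.96 (SE 0.60, -0.30 to 2.22, edgeR adjusted p = 0.748).

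Averaged over training, 9 of the 35 fibre type effects were positive and 26 negative (median -0.16, all genes 0.60), and this direction too changed with the scaling: 13 and 22 with DESeq2's size factors, but 27 and 8 on library totals and 29 and 6 on log2(FPKM + 1). The 227 calls among all genes were 130 higher and 97 lower with TMM against 158 and 56 on library totals. No member separated all 6 type I from all 6 type IIb libraries in TMM-scaled CPM, against 3.57% of all genes.

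None of the 6 core subunits separated the fibre types, in untrained or in trained mice, in TMM-scaled CPM or on library totals. Relative to the median member, Ndufs3 did in trained mice, lower in type I. Ndufc2 and Ndufb3 did too, higher in type I. That is 8.57% of members against 9.93% of all genes. Ndufv1, which binds NADH and the flavin, was at 139, 234 and 143 CPM in untrained type I, 241, 242 and 89.4 in trained type I, 262, 185 and 79.4 in untrained type IIb and 178, 226 and 573 in trained type IIb libraries. Ndufv2, its iron-sulfur partner, was at 320, 399 and 272, then 175, 536 and 340, then 541, 376 and 647, and then 325, 244 and 543 CPM. Ndufs1, the largest subunit and holder of several iron-sulfur clusters, was at 281, 144 and 139, then 465, 122 and 263, then 497, 443 and 79.95, and then 128, 210 and 357 CPM. For these 3 genes the groups overlapped in each of the 4 comparisons of 2 groups.

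Ndufs3, a core protein of the matrix arm without a redox centre, was at 180, 313 and 203 CPM in untrained type I, 305, 498 and 159 in trained type I, 146, 303 and 349 in untrained type IIb and 352, 269 and 540 in trained type IIb libraries. Ndufs7, which holds the last cluster before ubiquinone, was at 211, 364 and 227, then 391, 322 and 173, then 96.4, 406 and 365, and then 218, 319 and 747 CPM. Ndufs8, which holds iron-sulfur clusters on the way there, was at 142, 287 and 241, then 47.5, 84.1 and 98.9, then 144, 257 and 100, and then 35.03, 39.2 and 328 CPM. Averaged over training, their log2 fold changes (type I over type IIb) lay between -0.40 and -0.19 in all 6 genes, each with an interval that included 0 and an edgeR adjusted p of at least 0.768; that of Ndufs8 was -0.19 and became positive under 8 of 25 alternatives. The sign of the core genes followed the scaling, with 0 of 6 positive for TMM and for DESeq2's size factors, 5 of 6 on library totals and 4 of 6 without the 3 libraries highest in endothelial markers.

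**Figure D4:**
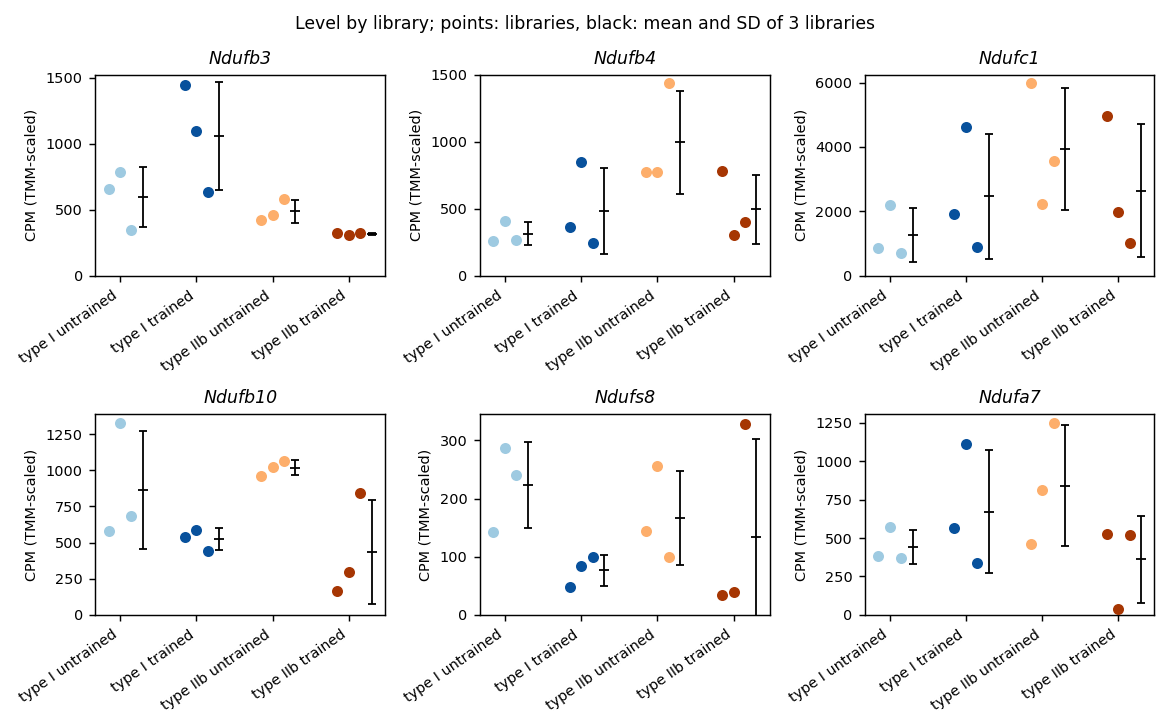
TMM-scaled CPM of 6 named genes in each library (points), with the mean and SD of the 3 libraries of a group (black; the lower SD bar of Ndufs8 in type IIb trained ends at the axis). Ndufb3 is higher in type I than type IIb trained libraries, Ndufb4 is lower in type I than type IIb untrained libraries, and 1 type IIb trained library holds the lowest Ndufa7 value, 37.3 CPM.

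Training in type I fibres gave 26 positive and 9 negative log2 fold changes (median 0.38, all genes -0.28). The median was 0.06 with DESeq2's size factors (19 positive and 16 negative), 0.03 on library totals (18 and 17) and 0.02 (18 and 17) without the 3 libraries highest in endothelial markers. The size of the median in type I depended on the scaling and on those libraries. By role, 9 of 9 matrix arm accessory subunits were positive (0.30 to 0.85), as were 5 of 6 core subunits, 5 of 9 proximal and 6 of 10 distal membrane arm subunits, with 0 of them called. With DESeq2's size factors the counts were 8, 2, 4 and 4 in that order, and on library totals 8, 2, 3 and 4. It was the matrix arm accessory subunits alone that were mostly positive under these 3 scalings. Without the 3 libraries highest in endothelial markers 7 of those 9 were positive, with a median of 0.11.

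Ndufs8 had the largest training difference in type I fibres. Its 3 type I trained libraries, at 47.5 to 98.9 CPM, were all below the 3 untrained ones, at 142 to 287 CPM. The log2 fold change was -1.54 (SE 0.87, -3.35 to 0.27, edgeR adjusted p = 1), and it was negative under all 26 alternatives. In type IIb fibres 2 of the 3 trained libraries were also low, at 35.03 and 39.2 CPM, but the third, at 328, was the highest of all 12 in TMM-scaled CPM. In FPKM the highest value of Ndufs8, 439, was in an untrained type I library. The log2 fold change of training in type IIb was -0.32 (-2.09 to 1.46). Ndufc1 was next in type I, at 0.97 (SE 0.61, -0.32 to 2.25, edgeR adjusted p = 1), with overlapping groups. Ndufa4 was the only one with an unadjusted p under 0.05, at 0.96 (SE 0.38, 0.17 to 1.75, edgeR adjusted p = 1); it was at 1275, 1764 and 894 CPM in untrained and 2622, 3502 and 1538 CPM in trained type I libraries. The groups did not overlap in 3 members: Ndufb6, higher after training, and Ndufs8 and Ndufa13, lower, which is 8.57% of members against 11.7% of all genes. On library totals the members were Ndufa1 and Ndufa4, higher, and Ndufs8 and Ndufb10, lower, against 10.7% of all genes. Of these, Ndufb6 shares 39% of its exon bases with Smim27 and Ndufa13 29.98% with Tssk6, both on the opposite strand, and the library kit does not mark strand, so reads of those pairs cannot be told apart.

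Training in type IIb fibres gave the opposite balance, 8 positive and 27 negative (median -0.38, all genes 0.36). The split was 8 and 27 with DESeq2's size factors and 7 and 28 on library totals. When libraries were scaled to the members it was 17 and 18, but that scaling brings the split near even by construction. By role, 8 of 9 matrix arm accessory, 7 of 9 proximal and 8 of 10 distal membrane arm subunits were negative, but 3 of 6 core subunits were positive. With DESeq2's size factors and on library totals the matrix arm count was also 8 of 9 negative. Scaled to the members, it was 3 of 9, and the distal count was 5 of 10. Under that scaling a role is read only against the other members, so these counts do not bear on the direction of the set. Endothelial markers were at 0 in all 3 untrained libraries and reached 240 CPM in 1 trained library; their part in these values was not tested, and without that library and the 2 in type I the median was -0.60, with 29 of 35 negative and 0 called.

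Ndufb10, a subunit on the intermembrane-space side of the distal arm (ENSMUSG00000040048, mm10 chr17:24722060-24724478), had the largest training difference in type IIb fibres. It was at 579, 1328 and 684 CPM in untrained type I, 540, 588 and 443 in trained type I, 962, 1026 and 1066 in untrained type IIb and 163, 294 and 841 in trained type IIb libraries. All 3 type IIb trained libraries were below the 3 untrained ones, while the type I groups overlapped (579 against 588 CPM). The log2 fold change of training was -1.23 in type IIb (SE 0.54, -2.37 to -0.10, edgeR adjusted p = 0.597), -0.72 in type I (-1.84 to 0.40) and -0.98 averaged (SE 0.38, -1.78 to -0.18, edgeR adjusted p = 1). The averaged value was negative under all 25 alternatives, from -1.79 to -0.78, with the lowest adjusted p at 0.512 (limma-voom). Against the median member it stood at log2 differences of 0.66 to 1.24 in the 6 untrained libraries and -1.22 to 0.58 in the 6 trained libraries, again a display chosen after the values were seen.

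Ndufa7, an accessory subunit of the matrix arm, came next in type IIb. It was at 381, 572 and 372 CPM in untrained type I, 566, 1111 and 337 in trained type I, 461, 813 and 1247 in untrained type IIb and 529, 37.3 and 518 in trained type IIb libraries. The difference of -1.22 (SE 0.71, -2.70 to 0.27, edgeR adjusted p = 0.668) included 1 library with 205 counts of the gene, the one whose 35 members took the smallest share of counts. Ndufb10, Ndufb3 and Ndufc2 had no overlap between the type IIb groups, all lower after training, which is 8.57% of members against 4.73% of all genes. On library totals 6 had none, also lower, against 4.84% of all genes.

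Averaged over both fibre types, training gave 19 positive and 16 negative log2 fold changes (median 0.02, all genes 0.15), and 11 and 24 with DESeq2's size factors or 9 and 26 on library totals. Ndufs8 was second to Ndufb10, at -0.93 (SE 0.60, -2.19 to 0.34, edgeR adjusted p = 1). No member separated all 6 trained from all 6 untrained libraries in TMM-scaled CPM, and 0.00851% of all genes did. On library totals and relative to the median member 1 of 35 did, Ndufb10, lower in trained libraries, against 0.0596% and 0.0341% of all genes.

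The training effect was then compared between fibre types. The interaction, the training effect in type I minus that in type IIb, was positive in 28 and negative in 7 members, with a median log2 value of 0.78 (all genes -0.68), and it was positive in 26 with DESeq2's size factors and 27 on library totals, where the medians were 0.44 and 0.50. Without the 3 libraries highest in endothelial markers the median was 0.46, with 29 positive. When libraries were scaled to the members it was 0.10, with 22 positive, but that scaling sets their mean log count equal and so removes a shared shift by construction. By role, all 9 matrix arm accessory subunits were positive, 7 of 9 proximal, 9 of 10 distal and 2 of 6 core subunits, and 0 were called. Scaled to the members, these counts were 8, 6, 5 and 2, and on library totals 9, 7, 8 and 2. Ndufa7 had the largest value, 1.82 (SE 0.99, -0.26 to 3.90, edgeR adjusted p = 0.664), and Ndufb4 the next, 1.64 (SE 0.77, 0.02 to 3.26, edgeR adjusted p = 0.547). Ndufa4 had the lowest adjusted p, 0.517, at 1.18 (SE 0.53, 0.07 to 2.29). A difference between the training effects in the 2 fibre types was thus not shown for any single gene, and Ndufs8, at -1.22 (-3.74 to 1.30), had the most negative value.

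**Figure D5:**
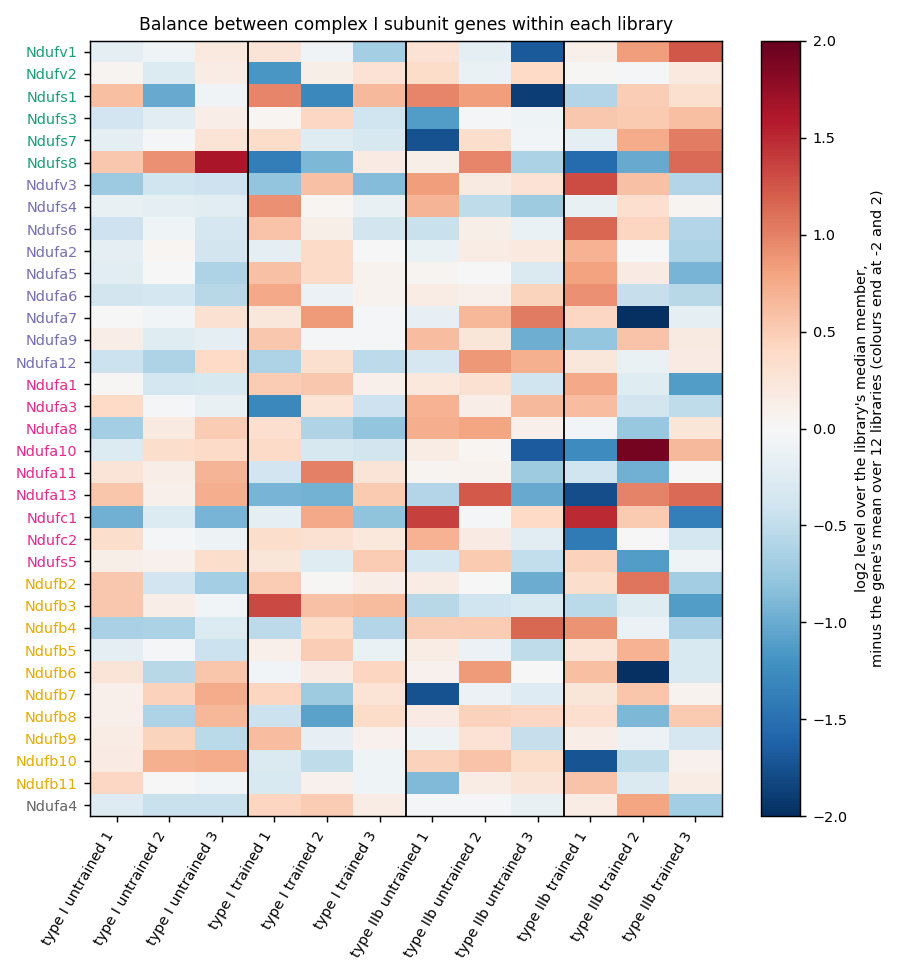
Balance among the 35 genes within each library: log2 level over the library's median gene of the set, less the gene's mean over 12 libraries (colour, ends at -2 and 2), with black lines between groups. Rows are ordered by role; Ndufb3 is redder in the 6 type I libraries, Ndufb10 is bluest in a type IIb trained library, and most rows change colour within a group.

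The 7 mitochondrially encoded subunits (mt-Nd genes), which form the proton-pumping core of the membrane arm, took 2.49% to 14.8% of library counts. The ratio of their counts to those of the 35 nuclear genes was 2.84, 2.92 and 2.41 in untrained type I, 3.997, 4.85 and 1.01 in trained type I, 5.03, 3.84 and 4.43 in untrained type IIb and 6.86, 9.93 and 3.69 in trained type IIb libraries. The ratio was higher in all 3 type IIb than in all 3 type I libraries of untrained mice, and the trained groups overlapped. All 7 genes had a negative log2 fold change (type I over type IIb), with medians of -1.60 for untrained mice, -0.56 for trained mice and -1.14 averaged, and 0 of 7 were called; the lowest averaged adjusted p was 0.0536 for mt-Nd5, at -1.51 (SE 0.39, edgeR). They are transcribed by the mitochondrion's own polymerase.

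The 17 assembly factors, which build the complex and are not part of it, had 8 positive and 9 negative averaged fibre type effects and 0 calls. Acad9 had the largest value, -3.38 (SE 2.11, edgeR adjusted p = 0.485), on 0 to 183 counts per library. Complexes II to V had 0 of 4, 0 of 9, 0 of 13 and 0 of 15 genes called in that comparison, with median log2 fold changes of 0.12, -0.04, 0.21 and 0.00 (all genes 0.60). Their largest values were those of Sdhc, 1.13 (SE 0.56), Uqcrh, 0.73 (SE 0.31), Cox6a1, 1.13 (SE 1.22), and Atp5h, 0.77 (SE 0.31), with edgeR adjusted p of 0.318, 0.22, 0.789 and 0.183. Among 12 genes of ubiquinone synthesis, the electron acceptor of complex I, 0 were called, and Pdss1 had the largest value, 2.90 (SE 1.93, edgeR adjusted p = 0.53). Of 16 genes that supply NADH or carry its electrons into mitochondria, 1 was called higher and 1 lower in type I, against 1.93% of all genes.

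The called pair were Mdh1 and Idh3a. Mdh1, the cytosolic malate dehydrogenase of the malate-aspartate shuttle, was at 1891, 2857 and 1568 CPM in untrained type I, 5016, 2743 and 2019 in trained type I, 97.3, 847 and 449 in untrained type IIb and 417, 668 and 1019 in trained type IIb libraries, so all 6 type I libraries were above all 6 type IIb ones. It was higher by 2.20 on the log2 scale (SE 0.42, edgeR adjusted p = 0.00677), and was called under 24 of 25 alternatives; limma-voom gave an adjusted p of 0.0593. Idh3a, a catalytic subunit of NAD-dependent isocitrate dehydrogenase in the citric acid cycle, was at 118, 139 and 72.8 CPM, then 129, 89.5 and 83.0, then 166, 587 and 436, and then 364, 347 and 523 CPM in the same order, so again the fibre types did not overlap. It was lower in type I, with a log2 fold change of -1.94 (SE 0.44, edgeR adjusted p = 0.0235), but the call was lost under 14 of 25 alternatives, among them leaving out any 1 of 7 libraries (type I untrained 1 or 3, type I trained 2 or 3, type IIb untrained 2 or 3, or type IIb trained 2; adjusted p up to 0.0947). Slc25a13, a mitochondrial aspartate-glutamate carrier of the same shuttle, had the largest value of that list, 5.59 (SE 2.02, edgeR adjusted p = 0.141), on at most 203 counts per library and 0 counts in 5 of 6 type IIb libraries.

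Further rows with Nduf names were measured and are not members. Ndufab1, the mitochondrial acyl carrier protein bound to the complex, had 988 to 5259 counts and an averaged log2 fold change (type I over type IIb) of 0.49 (edgeR adjusted p = 0.661), and Ndufb1-ps had 1158 to 5395 counts and a value of -0.13. Ndufa4l2, a relative of Ndufa4, had 0 to 197 counts. Near-copies of members had few counts: 12 to 86 for Ndufb4c, 22 to 70 for Ndufs6b, 1 to 25 for Ndufa11b and 33 to 244 for Ndufab1-ps. The labels do not say how reads that fit both a member and such a copy were counted.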

How the data were processed

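Myofiber RNA was sequenced in 12 libraries, 4 groups of 3, made per the labels with the kits SMART-Seq HT and Nextera XT, whose reads carry no strand. Per the submitters' processing notes, TopHat2 and the mouse build mm10 were used. The version of TopHat2, the counting program and the annotation release are not given in the sources used. The deposited read counts are whole numbers per gene, not normalised. The deposited FPKM values were scaled by the authors to gene length (the deposited length column) and library total: 94.5% of nonzero values were within 0.1% of count over length and total, with a largest deviation of 0.361%. All 12 per-sample FPKM tables equalled the series table. Unused per-sample columns numbered 0.

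Samples were grouped by their titles. Counts were tested in R 4.3.3 with edgeR 4.0.16 (TMM, robust quasi-likelihood fit of all 12 libraries with a mean per group; minimum count 10, minimum total 15; 11747 genes tested), with a call at an adjusted p (Benjamini-Hochberg, over all genes) under 0.05. SE is the absolute log2 fold change over the square root of F, and intervals are 95% intervals from it. Levels of single genes are TMM-scaled CPM; summed markers and shares are of library totals. Alternatives used limma 3.58.1, DESeq2 1.42.0, other scalings, a replicate block and left-out libraries, 26 in all, 4 of them chosen after seeing the data. The test script was checked on simulated data. Amplified reads carry no molecular identifiers, so depth covers counting error only.

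The members and the lists were chosen with earlier results of these data known. Values in every library are given for the 6 core subunits, members called, the 2 largest absolute fold changes per comparison, and the 3 highest and 3 lowest by mean FPKM; from pathway lists, the genes called and the largest fibre type effect of each. Exon overlaps came from GENCODE M21 (mm10), whose coordinates were those of the deposited table for 35 of 35 members; 14 members share exon bases with another gene, 6 of them over 10%.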

Additional observations from a re-analysis of the deposited data

How the results depend on the processing

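Over 26 alternatives (25 for the interaction and the averaged effects, which need all 4 groups), 0 members were called for training in type I, training in type IIb, the interaction and averaged training under every one. For type I against type IIb, limma-voom with quality weights called 8 members in untrained mice (Ndufb4, Ndufa7, Ndufc1, Ndufa6, Ndufv3, Ndufa4, Ndufa12 and Ndufa2, all lower in type I) and 1 in the averaged effect (Ndufv3). Limma on log2(FPKM + 1), limma on log2(FPKM + 0.1) and edgeR on library totals each called 1, Ndufb3, in trained mice and in the averaged effect. Among the members named by size, these calls were those of Ndufb4 (-1.97) and Ndufc1 (-1.94) with limma-voom, and of Ndufb3 in trained mice (2.03, 2.04 and 2.04) and averaged (1.40, 1.40 and 1.42). The median log2 fold change in untrained mice became 0.00576, 0.00575 and 0.0147 under those 3 settings, and the averaged fibre type median 0.349, 0.35 and 0.27; the interaction median was 0.0977 when libraries were scaled to the 35 members, which sets their mean log count equal by construction. The cause of the other shifts was not tested. Leaving out each library in turn changed no count of members called; the medians ranged from 0.04 to 0.62 for training in type I, -0.53 to -0.17 in type IIb, -0.85 to -0.30 for fibre type in untrained and -0.04 to 0.29 in trained mice (negative without type I trained 2 or type IIb trained 2), 0.40 (without type I trained 2) to 1.13 (without type I untrained 2) for the interaction, -0.31 (without type I untrained 2) to -0.08 (without type IIb trained 1) for averaged fibre type, and -0.11 to 0.18 for averaged training. Replicate numbers are shared between groups, and 4 of 18 same-numbered pairs deviated together with r above 0.1 (-0.13 to 0.18). Whether a shared number marks a shared mouse or day is not stated, and r over 3 libraries per group cannot settle it. With a replicate block 0 members were called in any comparison, and Idh3a was not called. The medians with that block were 0.39, -0.37, -0.54, 0.07, 0.71, -0.18 and 0.02 in the order of the report. Each member had at least 205 counts in every library, and precision is limited by 3 libraries per group.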
